A study of Mus musculus with 8 samples.

Results

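Messenger RNA of 9 G protein-coupled receptor genes was compared between the resident microglia and the bone marrow-derived macrophages (BMDM) of mouse brain tumors. The genes were taken by name from a table of 55450 genes, with reads for 31187 of them and 16467 in the test. They were Adgrg1, Adgre4, Adgre5, Gpr34, Gpr35, Gpr65, Gpr84, Gpr183 and Lpar6, and each had 1 row. Of the 9, 8 passed the filter on low counts and Adgre4 did not. Tumors of the mouse glioma line GL261, which the labels call isogenic, had been established in the brains of mice labelled WT, and both cell groups carry that label. Both groups were sorted as F4/80 and CD11b positive, Ly6G negative cells with little or no Ly6C. Microglia (3 libraries) were low in CD45 and low or negative for CD49d, while BMDM (5 libraries) were CD45 positive and high in CD49d. Strain name, age, sex and the number of mice per library are not given in the sources used here, so p-values measure the spread between libraries, which may be technical.

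G protein-coupled receptors cross the membrane several times and pass a signal from outside the cell to G proteins inside it. The adhesion class (Adgr genes) has a long extracellular part that binds matrix or neighbouring cells and that, in most members, is cut from the membrane part during synthesis. The other receptors described here were long called orphans and are now studied mainly as sensors of lysolipids, oxysterols, fatty acids, other metabolites or acid. Adgrg1 and Gpr34 are known as genes of resident microglia, and Gpr65 and Adgre5 as genes of many blood leukocytes.

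BMDM held 23.8-fold less Adgrg1 mRNA than microglia, 4.71-fold more Adgre5 and 4.47-fold more Gpr65. These 3 of 8 tested receptors passed the quasi-likelihood test of edgeR at a Benjamini-Hochberg adjusted p of 0.05, where 1.93% of all genes tested passed (1.11% higher and 0.814% lower in BMDM). For 5 of the 8, every library of one group lay above every library of the other. In 3 of these BMDM was higher, as in 4.32% of all genes tested, and in 2 BMDM was lower, as in 8.66%. These were the 3 called genes, Gpr34 (lower in every BMDM library) and Gpr35 (higher in every BMDM library). Gpr84, Gpr183 and Lpar6 had overlapping libraries. With BMDM 1 to 3 alone against microglia, 5 of 8 were called, 2 lower and 3 higher, where 14.5% of all genes were (8.11% lower and 6.35% higher), and Gpr34 and Gpr35 were the added calls.

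Library totals ran from 5890406 to 16659154 counts. Reads of Gm42418, a model over ribosomal RNA, made up 14.8% to 19.8% of BMDM 1 to 3, 41.2% and 48.9% of BMDM 4 and BMDM 5, and 34.0% to 47.0% of microglia. BMDM 4 and BMDM 5 also had more missing genes. Among genes predicted at 20 or more counts from the mean of the other libraries of the group, 14.1% were at 0 in BMDM 4 and 10.3% in BMDM 5, against 0.717% to 1.95% in BMDM 1 to 3 and 0.509% to 3.60% in microglia. The marker lists were chosen with earlier results of these data known, so they do not check the labels independently. Itga4, a monocyte-derived marker called higher in BMDM, encodes CD49d, by which the groups were sorted. Ly6c2 was also called higher (log2 fold change 5.7, SE 0.87, adjusted p = 0.0036), with little or no Ly6C in either gate. In all, 8 of 10 microglial markers were called lower in BMDM and 7 of 10 monocyte-derived markers were called higher. Their summed level was 2650 to 7840 CPM (counts relative to library totals scaled by TMM factors) in microglia and 797 to 1830 in BMDM for the first list, and 322 to 765 and 1010 to 3880 for the second. Fewer cells of a type and less RNA per cell cannot be told apart in such bulk libraries.

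**Figure D1:**
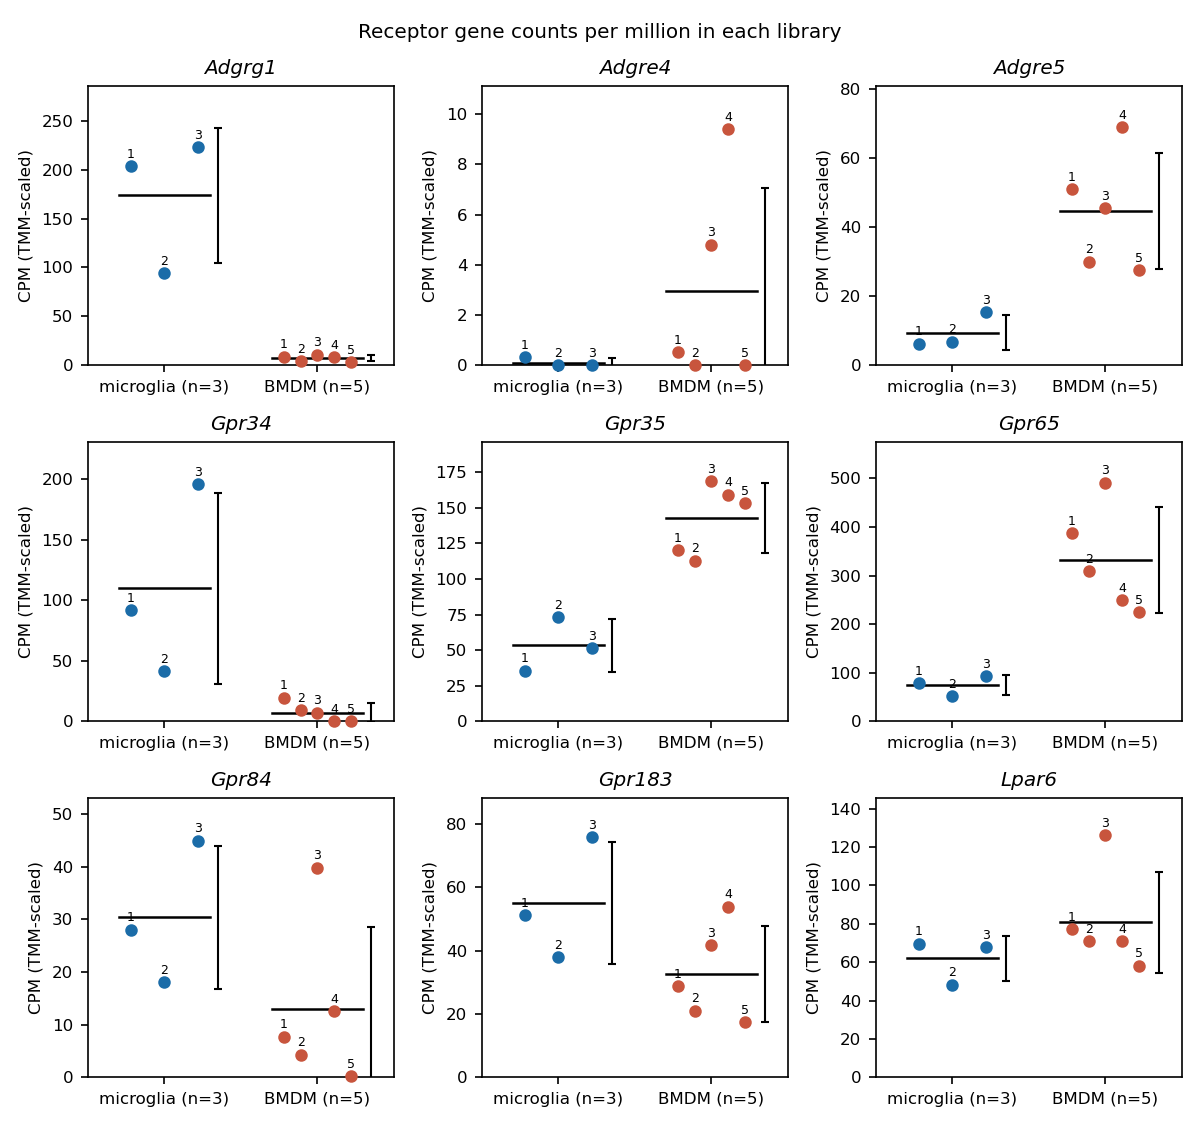
CPM (TMM-scaled, linear axes from 0) of the 9 receptor genes in each library, with microglia in blue, BMDM in red and library numbers above the points. Horizontal lines are group means and vertical bars are ± SD, drawn down to 0 where they would pass it. Adgrg1 ranged from 94.3 to 223 in microglia and from 3.59 to 10.9 in BMDM, while Lpar6 overlapped between groups.

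Adgrg1, also called GPR56, is an adhesion receptor that binds collagen III and transglutaminase 2. It lies on chromosome 8 (94974751 to 95014217, plus strand, GRCm38). Its level was 203, 94.3 and 223 CPM in microglia 1 to 3, and 8.92, 4.56, 10.9, 8.44 and 3.59 in BMDM 1 to 5. The lowest microglia library was thus far above the highest BMDM library. The means were 174 ± 69.3 CPM (SD, n = 3) and 7.28 ± 3.08 (n = 5), and the log2 fold change was -4.57 (SE 0.44, adjusted p = 0.000148, lower in 5 of 5 BMDM libraries than in any microglia library). The call held in all 17 alternative settings, with log2 fold changes from -4.90 to -4.40. BMDM counts of Adgrg1 were low but not near 0, at 26 to 95 reads per library, and BMDM still held microglial marker RNA in the summed levels given above. Whether the Adgrg1 reads in BMDM come from microglia in the gate was not tested.

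The 250 bases before its start sites are shown for Adgrg1 and Gpr65, the called genes found in the RefSeq promoter table (GRCm38.p6), which held 7 of the 9 genes. Adgrg1 has a pair of start sites in that table. Capitals mark matches to any of the motifs listed after the sequences, and all are written 5′ to 3′ on the strand of the gene.
Adgrg1 upstream start site, plus strand, chr8:94976859-94977108: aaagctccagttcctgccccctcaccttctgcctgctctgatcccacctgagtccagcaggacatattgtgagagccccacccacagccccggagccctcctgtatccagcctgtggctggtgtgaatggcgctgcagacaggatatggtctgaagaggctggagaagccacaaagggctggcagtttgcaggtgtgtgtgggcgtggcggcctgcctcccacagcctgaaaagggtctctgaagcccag
Adgrg1 downstream start site, plus strand, chr8:94984149-94984398: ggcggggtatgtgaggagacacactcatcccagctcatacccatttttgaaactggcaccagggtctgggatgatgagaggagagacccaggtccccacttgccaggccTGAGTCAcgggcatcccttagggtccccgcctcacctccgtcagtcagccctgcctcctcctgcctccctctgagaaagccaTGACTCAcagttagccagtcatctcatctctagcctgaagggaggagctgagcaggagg
Gpr65, plus strand, chr12:98268385-98268634: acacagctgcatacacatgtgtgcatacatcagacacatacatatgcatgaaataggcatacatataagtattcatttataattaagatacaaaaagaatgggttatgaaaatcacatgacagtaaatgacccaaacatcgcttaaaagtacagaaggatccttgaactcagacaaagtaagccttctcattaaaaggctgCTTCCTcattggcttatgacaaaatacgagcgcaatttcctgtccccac

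The motifs were searched on both strands. AGGAAG, a core bound by PU.1 and other ETS factors, was in 29.5% of the 32851 windows of this length in the table. TGAGTCA, bound by AP-1, was in 4.46%, the MEF2-type TAAAAATA in 2.45%, the cAMP response element TGACGTCA in 1.55% and the E-box CACGTG in 6.02%. The downstream Adgrg1 window held TGAGTCA in both orientations, starting 141 and 59 bases before the start site, and the upstream one held no match. Gpr65 held AGGAAG once on the reverse strand, 49 bases before its start. Of the other windows, that of Gpr84 held AGGAAG 3 times, and 1 of the windows of Gpr35 held AGGAAG at 2 places and TGAGTCA once. Those of Adgre4, Gpr183 and Lpar6 held none of the listed motifs. The counts do not say which start site was used, since the libraries read the 3′ ends of transcripts.

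Adgre5 encodes CD97, an adhesion receptor of leukocytes that binds CD55 on other cells. It lies on chromosome 8 (83723251 to 83741326, minus strand). Microglia held 6.31, 6.84 and 15.4 CPM and BMDM held 51.0, 30.0, 45.4, 68.9 and 27.6. All 5 BMDM libraries were above all 3 microglia libraries, the opposite order to Adgrg1. The means were 9.50 ± 5.08 CPM (n = 3) and 44.6 ± 16.8 (n = 5), a log2 fold of 2.23 (SE 0.47, adjusted p = 0.0227). The call was lost without microglia 1 (adjusted p = 0.143), microglia 2 (0.127), BMDM 1 (0.0524) or BMDM 3 (0.0583), while the log2 fold change stayed between 1.99 and 2.69. The ratio of Adgrg1 to Adgre5 counts, which no library scaling changes, was 13.8 to 32.2 in microglia and 0.122 to 0.239 in BMDM.

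Adgre4 is a relative of the F4/80 gene described in monocytes and macrophages (chromosome 17, 55749984 to 55853662). It had 6, 0 and 0 reads in microglia 1 to 3 and 4, 0, 42, 59 and 0 in BMDM 1 to 5. Nearly all reads thus came from BMDM 3 (4.81 CPM) and BMDM 4 (9.39 CPM), while BMDM 1 (0.533 CPM) was just above the highest microglia library (0.316 CPM) and BMDM 2 and BMDM 5 were at 0. A count of 0 allows up to 0.302 CPM in microglia 2, 0.334 in microglia 3, 0.369 in BMDM 2 and 0.415 in BMDM 5 (3 reads each, for counting error only). With no filter on low counts its adjusted p was 0.368. Adgre1 itself, the gene of F4/80 and part of the gate, was at 60.8 to 88.6 CPM in microglia and 44.7 to 119.8 in BMDM (log2 fold change 0.04, SE 0.36, adjusted p = 0.985).

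**Figure D2:**
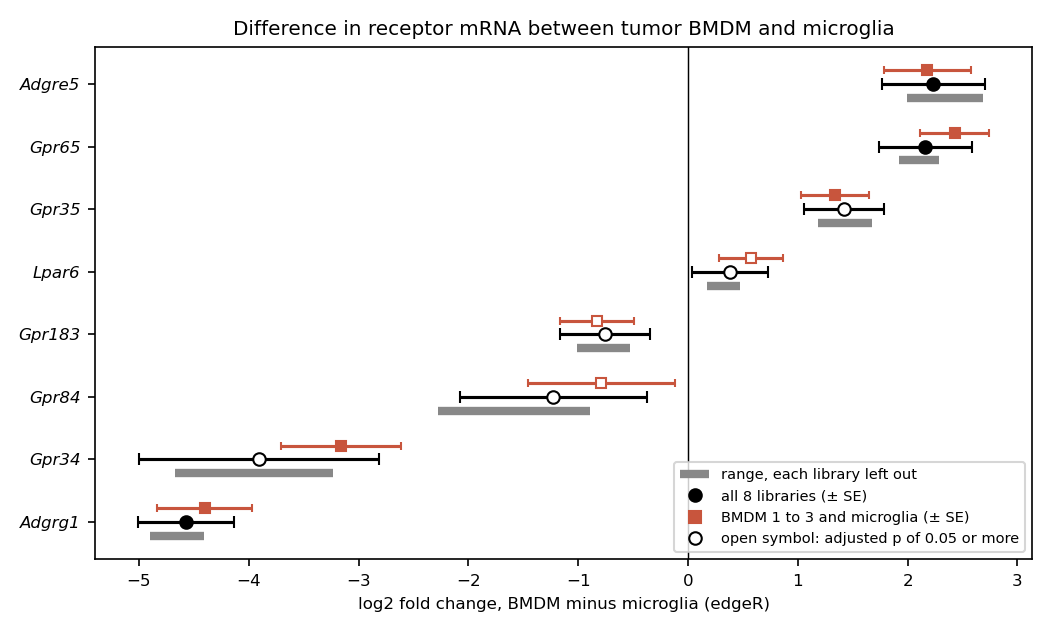
Log2 fold changes (BMDM minus microglia, edgeR) of the 8 tested receptor genes with ± SE, for all 8 libraries (black circles) and for BMDM 1 to 3 against microglia (red squares), where filled symbols have an adjusted p under 0.05. Grey bars span the values with each library left out in turn. Adgrg1 (-4.57), Adgre5 (2.23) and Gpr65 (2.16) were called with all libraries, and Gpr34 and Gpr35 in addition with BMDM 1 to 3.

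Gpr34 encodes a receptor for lysophosphatidylserine, a lipid shed by damaged and dying cells, and is a widely used microglial gene (chromosome X, 13632089 to 13640858). Microglia held 92.0, 41.6 and 196 CPM, and BMDM held 19.7, 9.24, 7.32, 0 and 0.138. The groups did not overlap, and the BMDM libraries were themselves split. BMDM 1 to 3 had 148, 75 and 64 reads, while BMDM 4 had 0 and BMDM 5 had 1, where their fellow libraries predicted 57.2 and 65.6. The means were 109.9 ± 78.8 CPM (n = 3) and 7.28 ± 8.10 (n = 5), and the log2 fold change of -3.91 (SE 1.09, adjusted p = 0.112) did not pass the test. With BMDM 1 to 3 alone it was -3.16 (SE 0.55, adjusted p = 0.00443), a smaller difference with a smaller error. Without BMDM 5 it was -3.56 (adjusted p = 0.0349), and limma-voom gave -5.49 (adjusted p = 0.0494). Gpr34 stayed uncalled in 13 of the 17 alternative settings. Among these were DESeq2 (adjusted p = 0.141) and the fits without microglia 1, 2 and 3 (0.477, 0.367 and 0.548). Leaving out each library in turn gave -4.67 (without BMDM 1) to -3.23 (without microglia 3). The share of missing genes given above was highest in the same BMDM 4 and BMDM 5, and its part in the Gpr34 values was not tested.

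Lpar6 encodes a receptor for lysophosphatidic acid, a growth-promoting lysolipid (chromosome 14, 73237895 to 73243294). Microglia held 69.8, 48.4 and 67.9 CPM and BMDM held 77.4, 71.1, 126, 71.2 and 58.2. The groups overlapped, and BMDM 3 stood above the other BMDM libraries. The log2 fold change was 0.38 (SE 0.35, adjusted p = 0.748), and no setting gave a call, with values from 0.17 to 0.57. Lpar4, its closest relative in the family, had 1.00 to 23.0 CPM in microglia and 0 to 21.8 in BMDM (log2 fold change -0.19, SE 1.18, adjusted p = 0.977).

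Gpr183, also called EBI2, guides immune cells along gradients of oxysterols (chromosome 14, 121952551 to 121965195). Microglia held 51.1, 37.9 and 75.8 CPM and BMDM held 28.8, 21.1, 41.6, 53.8 and 17.4. BMDM 3 and BMDM 4 lay within the range of microglia and the other 3 BMDM libraries below it. The log2 fold change was -0.76 (SE 0.41, adjusted p = 0.466). Ch25h, whose product starts the synthesis of the Gpr183 ligand, had 5.83 to 13.3 CPM in microglia and 4.66 to 35.5 in BMDM, and was not called (log2 fold change 0.60, SE 0.70, adjusted p = 0.816).

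Gpr65 encodes an acid-sensing receptor that raises cyclic AMP through the stimulatory G protein (chromosome 12, 98268635 to 98276644). Microglia held 79.0, 51.5 and 92.6 CPM and BMDM held 388, 309, 491, 249.6 and 225. The lowest BMDM library was more than the highest microglia library, so the groups were separate. The means were 74.4 ± 20.9 CPM (n = 3) and 332 ± 109 (n = 5), a log2 fold of 2.16 (SE 0.42, adjusted p = 0.0159). The call was lost without any 1 of the microglia libraries (adjusted p = 0.0933, 0.126 and 0.0830 without microglia 1, 2 and 3), and the log2 fold change stayed between 1.93 and 2.43 in every setting tried.

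Gpr132 and Gpr4, also described as acid-sensing receptors, had fewer reads. Gpr132, which is in addition described as a receptor for oxidised lipids, was at 0.603 to 5.90 CPM in microglia and 21.9 to 78.8 in BMDM, without overlap. Its log2 fold change was 3.92 (SE 0.67, adjusted p = 0.00716) and its call held in all 17 settings. Gpr4 had too few reads to be tested, with at most 31 in any library.

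Gpr35 encodes a receptor for which kynurenic acid and lysolipids have been proposed as ligands (chromosome 1, 92950865 to 92986391). Microglia held 35.6, 73.2 and 51.3 CPM and BMDM held 120.2, 113, 168.5, 159 and 153. The groups did not overlap, and the BMDM libraries were close together, with an SD of log2 CPM of 0.26. The median over all genes tested was 1.19, but it includes genes with far fewer reads than the 903 to 1473 of Gpr35 in BMDM. The means were 53.4 ± 18.9 CPM (n = 3) and 143 ± 24.7 (n = 5), a log2 fold of 1.42 (SE 0.37, adjusted p = 0.0647), which just missed the threshold. It passed in 10 of the 17 alternative settings, among them DESeq2 (adjusted p = 0.000288, where 5.60% of all genes were called), limma-voom (0.0326, 2.37%) and BMDM 1 to 3 alone (0.0163). It failed in 7 of the 8 fits without 1 library, with adjusted p from 0.0756 (without BMDM 2) to 0.390 (without microglia 1), and passed without BMDM 5 (0.0246).

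Gpr84 responds to medium-chain fatty acids and is induced in inflamed myeloid cells (chromosome 15, 103308235 to 103310612). Microglia held 28.0, 18.1 and 44.9 CPM and BMDM held 7.72, 4.31, 39.8, 12.6 and 0.276. BMDM 3 lay within the range of microglia, the other BMDM libraries below it, and BMDM 5 had 2 reads where 117 were predicted from the other BMDM libraries. Its SD of log2 CPM over BMDM was 2.35, after Gpr34 (3.00) the widest of the 8 tested receptors. The log2 fold change was -1.23 (SE 0.85, adjusted p = 0.621), or -2.28 (adjusted p = 0.248) without BMDM 3.

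Adgre5 and Gpr65 are also expressed by other blood cells. Summed markers of T cells, dendritic cells, neutrophils and border macrophages were higher in each BMDM library than in any microglia library, while those of NK cells and B cells overlapped. Of 6 T cell markers, 6 were detected in both groups and 0 were called. Their summed level was 2.78 to 16.5 CPM in microglia and 25.4 to 93.9 in BMDM. NK cell markers (6 of 6 detected, 0 called) summed to 0.556 to 9.55 and 4.98 to 150 CPM. Dendritic cell markers (6 of 6 detected in both groups, Ccr7 called higher) summed to 3.23 to 6.94 and 28.1 to 87.2. Neutrophil markers (6 of 7 detected in microglia, where Ly6g was at 0, and 7 of 7 in BMDM, S100a8 called higher) summed to 36.9 to 40.5 and 55.8 to 117. Ly6g had only 1 read each in BMDM 3 and BMDM 5. Csf3r went the other way without overlap, at 24.45 to 34.38 CPM in microglia and 5.33 to 16.0 in BMDM. It was not called (log2 fold change -1.61, SE 0.45, adjusted p = 0.0887). Border macrophage markers (6 of 6 detected, Pf4 and F13a1 called higher) summed to 15.4 to 78.4 and 158 to 907. Mrc1 and Cbr2 were tested and not called. Lyve1 (mean 0.319 CPM in microglia, 0.254 in BMDM) and Cd163 (0.222 and 2.16) did not pass the filter on low counts. Both were at 0 in BMDM 4 and BMDM 5. B cell markers (5 of 6 detected in microglia, where Cd79a was at 0, and 6 of 6 in BMDM, 0 called) summed to 1.61 to 8.57 and 4.31 to 11.1. The part of these cells in the receptor values was not tested. Markers of endothelium, oligodendrocytes, astrocytes and neurons gave 0 calls, and their sums overlapped between groups except for endothelium (32.0 to 57.4 CPM in microglia, 61.9 to 79.7 in BMDM).

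In the wider adhesion receptor family of 30 genes, which includes Adgrg1, Adgre4 and Adgre5, 28 had a read and 17 were tested. Of these, 1 rose (Adgre5) and 1 fell (Adgrg1) in BMDM, where 1.11% of all genes tested rose and 0.814% fell. The median log2 fold change was -0.26 against 0.08 over all genes tested. Adgrg5 and Adgrg3 flank Adgrg1 on chromosome 8, at 31471 and 3475 bases from it. Adgrg5 was at 2.31 to 6.12 CPM in microglia and 9.81 to 19.3 in BMDM, not called but without overlap (log2 fold change 1.42, SE 0.63, adjusted p = 0.327). Adgrg3 had a log2 fold of 1.46 (SE 1.67, adjusted p = 0.813). Both estimates were positive, but neither neighbour was called and the SE of Adgrg3 was larger than its fold, so its sign is not settled. Adgra3, named after its values were seen, was with Adgrg1 the other adhesion receptor whose BMDM libraries all lay below microglia, at 20.5 to 49.3 against 0 to 13.7 CPM (log2 fold change -2.60, SE 0.86, adjusted p = 0.166).

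Of 48 receptors for lipids, acid and metabolites, which include the other 6 genes, 41 had a read and 28 were tested. In BMDM 3 rose (Gpr65, Gpr132 and Fpr2) and 0 fell, where 1.11% of all genes tested rose and 0.814% fell. The median log2 fold change was 1.24 against 0.08 over all genes tested, and 19 were positive and 9 negative. Many of these folds rest on few reads and have an SE above 1. Fpr2, which binds formyl peptides and lipid mediators, was at 1.67 to 3.42 CPM in microglia and 21.9 to 50.7 in BMDM (log2 fold change 3.69, SE 0.49, adjusted p = 0.00144). P2ry10, a lysophosphatidylserine receptor like Gpr34, was at 2.78 to 11.1 and 2.29 to 23.1 CPM and was not called (log2 fold change 1.07, SE 0.72, adjusted p = 0.602).

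Among 53 other orphan receptors, 48 had a read and 16 were tested. In BMDM 2 rose and 0 fell, where 1.11% of all genes tested rose and 0.814% fell. The median was 0.28 against 0.08 over all genes tested. Gpr171, an orphan receptor known in T and NK cells, was at 0 to 1.81 CPM in microglia and 9.23 to 37.8 in BMDM. It was called higher in BMDM (log2 fold change 4.51, SE 0.87, adjusted p = 0.0142). It was lost with limma-voom (adjusted p = 0.0677) and without microglia 1 (0.0577), microglia 2 (0.0512) or BMDM 3 (0.0516), and its log2 fold change was 3.90 without microglia 3 and 5.41 with limma-voom. Gpr141 was called higher too (log2 fold change 2.86, SE 0.63, adjusted p = 0.0277), and 7 of the 17 settings lost it, with adjusted p up to 0.134. Without microglia 3 its log2 fold change was 3.53. The T and NK marker sums given above apply to Gpr171 too.

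**Figure D3:**
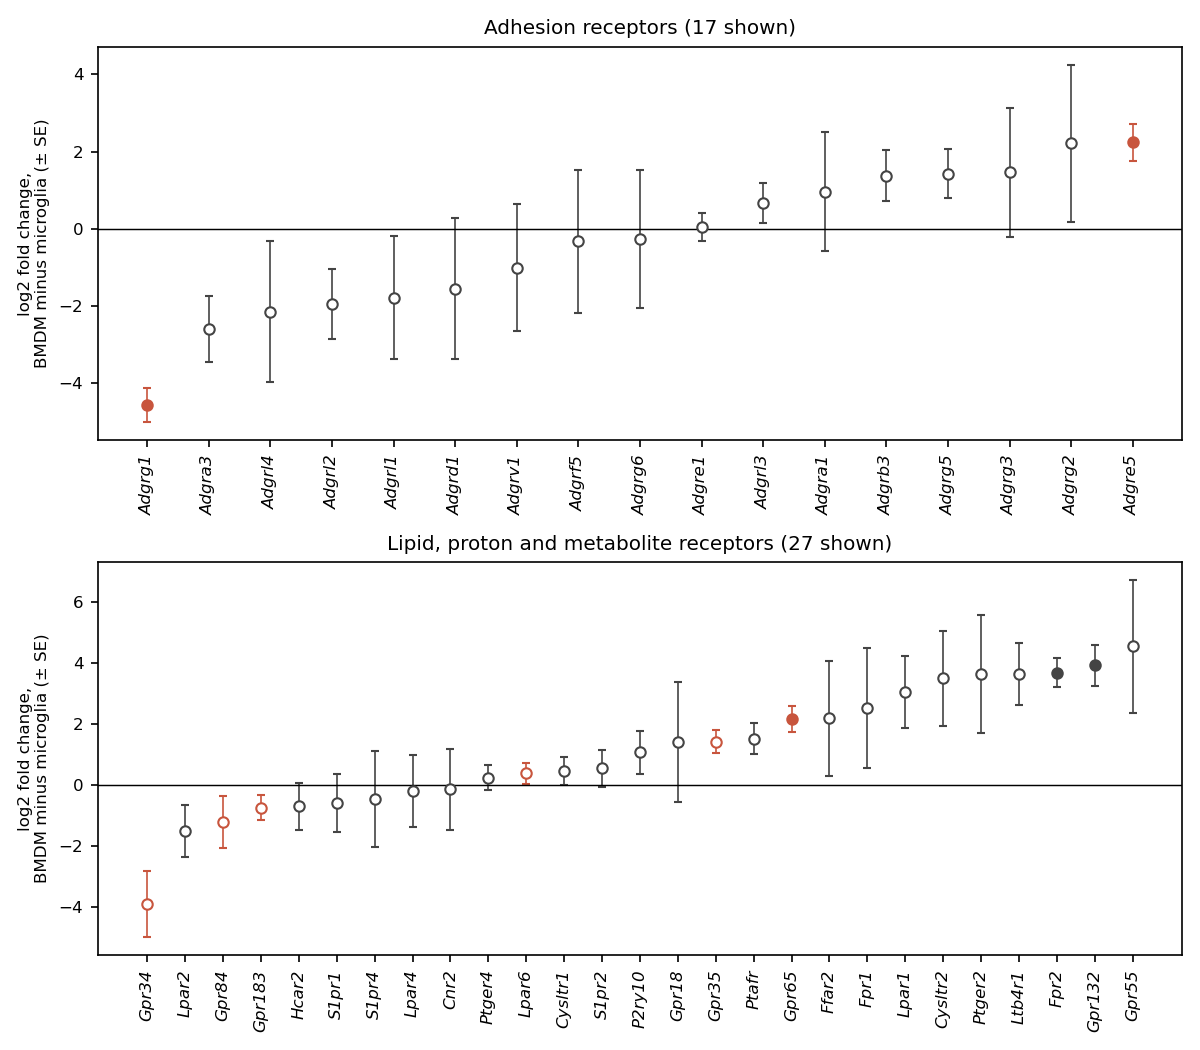
Log2 fold changes (BMDM minus microglia, ± SE, edgeR over all 8 libraries) of tested adhesion receptors (top) and of tested lipid, proton and metabolite receptors (bottom). Red marks the 8 tested receptor genes described in the text, filled symbols have an adjusted p under 0.05, and genes are ordered by value. Adgrg1 and Adgre5 stand at the ends of the adhesion panel, at -4.57 and 2.23, and Gpr65, Fpr2 and Gpr132 are the filled points of the lower panel.

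Ligands and partners were read from a list of 23 genes, of which 19 were tested. In BMDM 0 rose and 2 fell, the tetraspanins Cd9 and Cd81, membrane proteins described in complexes with the Adgrg1 product. Over all genes tested, 1.11% rose and 0.814% fell. Cd9 was at 160 to 306 CPM in microglia and 13.3 to 58.7 in BMDM (log2 fold change -2.44, SE 0.43, adjusted p = 0.00853) and held in all 17 settings. Cd81 was at 251 to 467.5 and 23.2 to 143 CPM (log2 fold change -1.99, SE 0.48, adjusted p = 0.0463) and was lost in 11 of the 17, among them 7 of the 8 fits without 1 library (adjusted p 0.0616 to 0.188). Without BMDM 5 its adjusted p was 0.0101. Tgm2, whose product is an Adgrg1 ligand, was at 114 to 255 CPM in microglia and 146 to 904.5 in BMDM, not called (log2 fold change 1.38, SE 0.54, adjusted p = 0.245). Abhd12, which degrades the lysophosphatidylserine that Gpr34 senses, was lower in each BMDM library but not called (log2 fold change -1.18, SE 0.36, adjusted p = 0.124). Cd55, the partner of the Adgre5 product, had at most 38 reads in any library and was not tested.

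Of 45 genes of G proteins and their regulators, 41 were tested and 1 fell, Gnas, while 0 rose. Over all genes tested, 0.814% fell and 1.11% rose. The median log2 fold change of the tested list genes was 0.01, against 0.08 over all genes tested. Gnas encodes the stimulatory alpha subunit through which Gpr65 signals. Microglia held 598, 449 and 1667 CPM of it and BMDM held 79.9, 94.6, 91.9, 176 and 202.5, without overlap (log2 fold change -2.81, SE 0.49, adjusted p = 0.00759). The call held in all 17 settings, but the size rests in part on microglia 3, without which the log2 fold change was -2.12 (adjusted p = 0.0406). Gnas and Gpr65 thus differed in opposite directions between the same libraries. The inhibitory subunit gene Gnai2 was at 400 to 835 CPM in microglia and 484 to 1182 in BMDM (log2 fold change 0.54, SE 0.43, adjusted p = 0.689), and Gna12 and Gna13 had log2 fold changes of -0.18 (SE 0.41, adjusted p = 0.920) and 0.08 (SE 0.51, adjusted p = 0.976).

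Several of the receptor genes share genome space with another gene on the opposite strand. Gpr34 lies within an intron of Cask, and Gpr183 within an intron of Ubac2. Lpar6 lies inside Rb1, sharing 408 exonic bases with it, 0 of them in the last 500 bases of Lpar6. Of Adgre5, 895 exonic bases overlap Ddx39, 98 of them in the last 500 bases of Adgre5 where such libraries are read. The sources used here do not give the strand setting of the counting, and without strand reads from the exonic bases shared by Lpar6 with Rb1 and by Adgre5 with Ddx39 could not be told apart. Gpr34 and Gpr183 share 0 exonic bases with their partners. None of the 4 partner genes was called. Log2 fold changes were -0.38 for Cask (SE 0.56, adjusted p = 0.862), 0.24 for Ubac2 (SE 0.45, adjusted p = 0.901), -0.43 for Rb1 (SE 0.37, adjusted p = 0.727) and -0.57 for Ddx39 (SE 0.32, adjusted p = 0.492). Ddx39 was lower in every BMDM library than in any microglia library, the opposite of Adgre5, so their count ratio went from 0.121 to 0.275 in microglia up to 0.645 to 1.84 in BMDM. The ratio of Gpr34 to Cask counts was 2.94 to 6.48 in microglia and 0 to 1.28 in BMDM. Antisense models cover 511 exonic bases of Gpr65 (Gm47566) and 681 of Gpr84 (Gm49482), and had 5 and 0 reads over all libraries. Of the last 500 bases, 0 are covered in Gpr65 and 338 in Gpr84. Without strand, reads from these shared bases could not be told apart either, and the part of this in the Gpr84 counts was not tested.

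**Figure D4:**
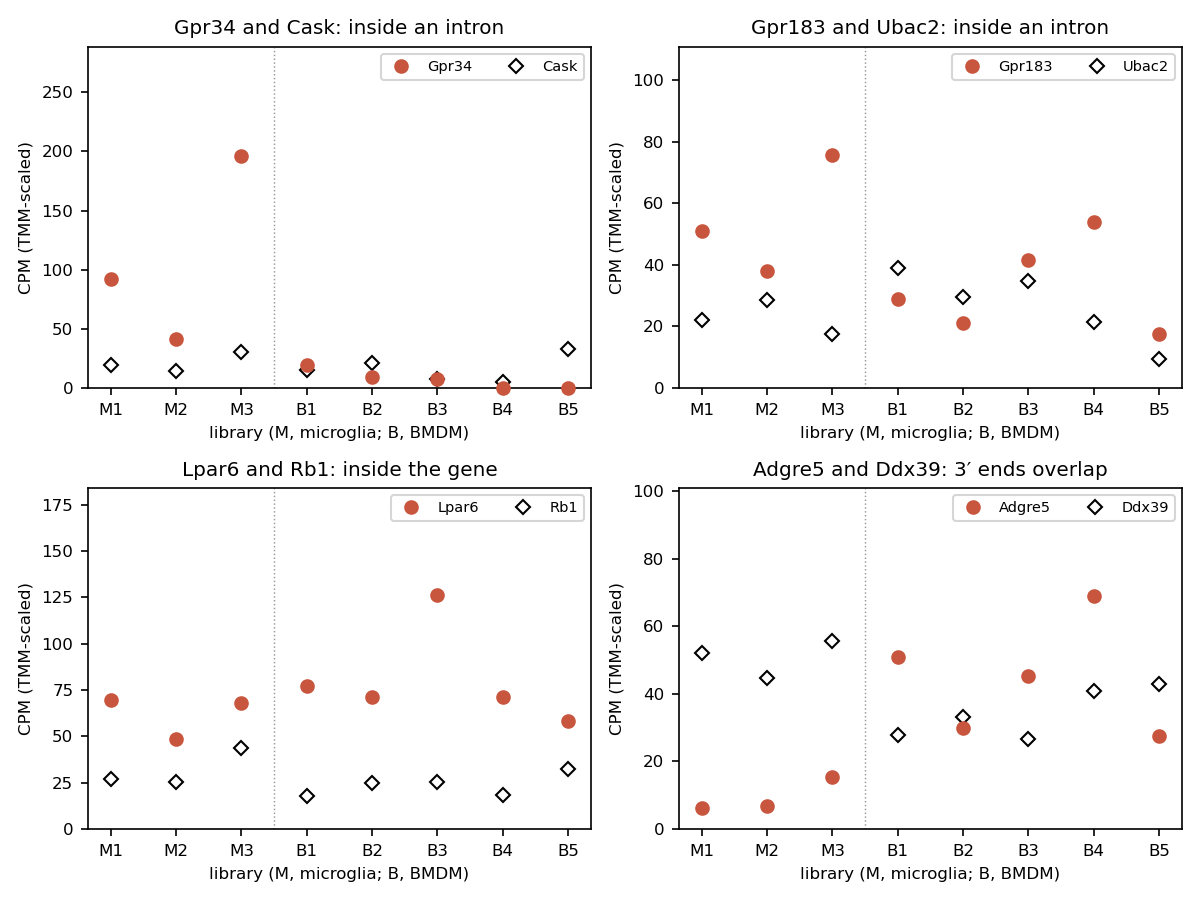
CPM (TMM-scaled, linear axes from 0) of 4 receptor genes (red circles) and of the opposite-strand gene each overlaps (open diamonds), in microglia (M) and BMDM (B) libraries. Gpr34 stood above Cask in microglia and at 0 or 0.138 in B4 and B5, and Adgre5 and Ddx39 differed between groups in opposite directions.

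The genes whose library pattern was most like that of Adgrg1, by the root-mean-square difference of centred log2 CPM over the 8 libraries among 5050 genes averaging 20 CPM or more, were Siglech (0.44), Sparc (0.57), Sall1 (0.64), Csf1 (0.72) and Nav3 (0.75). Each was called lower in BMDM, with log2 fold changes from -4.59 (Csf1) to -3.69 (Nav3). Among the 5 most like Adgre5 were Apoe (0.38), Slamf7 (0.43), Fxyd5 (0.43) and Metrnl (0.45). These 4 had positive folds, from 2.06 (Fxyd5) to 2.51 (Metrnl), and Apoe alone of the 4 was not called (adjusted p = 0.0563). Both rankings use the group difference itself and are given as a description.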

How the data were processed

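The deposited values are raw read counts by gene in 1 table for 8 libraries (QuantSeq 3′ FWD, single reads, per the labels' protocols). The submitters' processing notes name the mm10 build with cutadapt, FastQC, featureCounts, STAR and DESeq2, without settings. Strand use and the handling of multi-mapping reads are not given in the sources used here. All 55450 identifiers and names matched GENCODE M21 (GRCm38), the source of positions. Counts were tested as BMDM minus microglia with edgeR 4.0.16 (R 4.3.3; filterByExpr with a minimum count of 10 and total of 15, TMM factors, robust quasi-likelihood fit, Benjamini-Hochberg over 16467 genes, threshold 0.05). Standard errors derive from the F statistic, and log2 CPM used a prior count of 2. Alternatives were RLE factors, library totals, DESeq2 1.42.0, limma-voom (limma 3.58.1), no filter, a filter of 10 CPM in 3 libraries, a replicate block, BMDM 1 to 3 alone, removal of Gm42418 and mitochondrial rRNA, and removal of each library in turn. No library pair of a group was alike within sampling noise (lowest chi-square per degree of freedom 21.1). The fit was tested on simulated counts, with the same dispersion for a gene in all libraries. These did not model the missing genes of BMDM 4 and BMDM 5, and no result here rests on them. Reads carry no molecular identifiers, so limits from counts cover counting error only. The members, gene lists and marker lists were chosen with earlier results of these data known. Named genes were the 9 receptors, every called gene of the 5 receptor, ligand and signalling lists, up to 4 uncalled relatives, ligand genes or G protein partners per list, genes overlapping a receptor, and the 5 nearest patterns of the receptor with the largest called fall and of that with the largest called rise. Of the genes this rule names, 2 are not reported here, and 1 of them is left out of the plot of the receptor lists.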

Additional observations from a re-analysis of the deposited data

Results flagged for a closer look

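Lpar6 in BMDM 3 stood apart from the other BMDM libraries. It was at 126 CPM there and at 58.2 to 77.4 CPM in the other 4, a gap of 0.717 of the whole range, where 0.710 is the limit for 5 values. The same check on 16 genes named in the text gave this 1 case, and chance gives about 1 in 20.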

How the results depend on the processing

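Every tested receptor gene kept its sign in all 17 alternatives. Adgrg1 kept its call and Lpar6 stayed uncalled in all of them. Against 3 of 8 receptors called, limma-voom gave 5 (2.37% of all genes called), BMDM 1 to 3 alone 5 (14.5%) and the replicate block 7 (19.6%), while DESeq2 (5.60%), RLE factors (2.02%), library totals (1.65%), no filter (2.31%), the stricter filter (4.63%) and leaving out Gm42418 and mitochondrial rRNA (1.99%) gave 4, with Gpr35 added in each. Leaving out 1 library gave 1 to 5, where 0.576% (without microglia 3) to 7.17% (without BMDM 5) of all genes were called. The 317 called genes (183 higher, 134 lower) became 922 (602, 320) with DESeq2, 721 (403, 318) with no filter and 2340 (1028, 1312) with BMDM 1 to 3 alone. With limma-voom they were 391 (141 higher, 250 lower), and without 1 library 104 to 1138 (58 to 536 higher, 46 to 602 lower). Over the 5 lists, 6 higher and 4 lower became 12 higher with DESeq2, 14 and 13 with BMDM 1 to 3 alone, and 2 to 10 higher and 3 to 9 lower without 1 library. The replicate block gave 3223 called genes (1449 higher, 1774 lower), and 16 higher and 20 lower in the lists. Same-numbered libraries correlated in their deviations by 0.28, 0.13 and -0.01. Deviations from the mean of only 3 microglia libraries cannot settle whether the numbers pair libraries, and the labels do not say. The block added Gpr34, Gpr35, Gpr84 and Gpr183 to the calls. The median over all genes was 0.08 with TMM factors, 0.20 with library totals and -0.23 with limma-voom. Causes of these changes were not tested.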

Other observations

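The receptor genes did not take their extremes evenly over libraries. Microglia 3 held the highest microglial level of 6 of the 9 genes and microglia 2 the lowest of 6. In BMDM, BMDM 3 was highest for 5 genes (Adgrg1, Gpr35, Gpr65, Gpr84 and Lpar6) and BMDM 4 for 3 (Adgre4, Adgre5 and Gpr183), while BMDM 5 was lowest for 6. Gpr34 alone of the 9 was highest in BMDM 1. These values share library scaling, and no test was made of them. The same ranking was not made over all genes, so whether the pattern is particular to the receptor genes is not known.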
